A study of Arabidopsis thaliana with 6 samples.

Results

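A set of 83 Affymetrix ATH1 probe sets, of 22810 on the arrays, was higher with estradiol than with DMSO in both pairs of shoot samples taken at 5 h and near equal in the pair taken at 3 h. The members were chosen from the measured differences themselves. For each pair of arrays of the same time and replicate number, the DMSO value was subtracted from the estradiol value on the log2 scale. A member had a difference of at least 0.585 (1.5-fold) in both 5 h pairs and a difference between −0.3 and 0.3 at 3 h. It also had to reach 3.56, the 40th percentile of the whole table and called the filter level here, on at least 2 of the 6 arrays. Control probe sets and genes with symbols starting UGT, BGLU, ALDH, ATG or CML were set aside, and the last step removed 0 of the 83. Of 14520 probe sets above the filter, 0.572% were members. Because the rule used the estradiol and DMSO values of every pair, all differences below are descriptions of the members and none is tested.

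The arrays measured RNA of Arabidopsis thaliana shoots (cultivar Col-0) from 2-week-old seedlings of MYB112-IOE line 1, in which estradiol switches on overexpression of MYB112. Estradiol seedlings received 10 µM β-estradiol in liquid medium and DMSO seedlings received DMSO, after 16 h in that medium. There were 2 estradiol arrays and 2 DMSO arrays at 5 h, and 1 estradiol array and 1 DMSO array at 3 h. All seedlings, those given DMSO included, carried the construct and came from the same transgenic line. Seedlings without the construct that received estradiol were not analysed here, so effects of MYB112 and of estradiol itself cannot be told apart. The series asks which genes are early targets of MYB112.

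MYB112 belongs to the R2R3-MYB family, the largest group of MYB transcription factors in plants, whose members bind DNA through a pair of MYB repeats and control branches of phenylpropanoid metabolism, cell identity and stress responses. In estradiol-inducible plants a hormone-activated fusion protein switches on the transgene, so the transcription factor must first be made before its own targets respond. Timing by itself does not separate direct from indirect targets. Whether the members share a pathway was not tested, and many carry no named gene. Named members are grouped below by the role of the encoded protein, a grouping made after their values were seen.

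The annotation used here named 1 gene for 39 of the 83 members, several genes for 1 and no gene for 43. MYB112 was named on 0 probe sets, so its level could not be checked. The probe set with the largest 5 h difference on the arrays, without a named gene, was no member: it was at 12.87 and 13.3 in the estradiol arrays at 5 h, against 2.7 and 3.27 in the DMSO arrays, and already at 10.8 against 2.59 at 3 h. Of 7 shoot markers, 2 had a named probe set, the photosynthesis genes RCA and LHCB4.1, with levels of 12.72 to 13.84 on all 6 arrays. Of 10 root markers, 6 had a named probe set, and EXPA7, EXPA18, AT3G49960 and AT3G54580 stayed at or under 2.96. The remaining 2, AT4G30170 and AT4G00670, reached 6.26 and 6.08. AT4G00670 differed by 0.52 and 0.74 in the 5 h pairs and by 0.42 at 3 h, and AT4G30170 by −0.37 and −0.75 and by 0.48. The part of root tissue in the members' differences was not tested. In whole shoots, fewer cells of a type and less RNA per cell cannot be told apart.

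Each pair of arrays had a lowest value of its own, 2.1 at 3 h and 2.14 and 2.16 in replicates 1 and 2 of 5 h. Over probe sets, arrays correlated at 0.994 to 0.998 (Pearson) inside a pair and at 0.957 to 0.968 across pairs. Separate normalization of the pairs was therefore assumed, and levels set across pairs carry that limit throughout. The labels call the samples biological replicates without saying whether each came from its own culture, and with so few arrays no value here is precise.

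Among the 83 members, the difference had a median of 0.87 in replicate 1 of 5 h (0.59 to 4.14) and 0.95 in replicate 2 (0.6 to 4.88), beside medians of 0 and −0.04 over the 14520 probe sets. At 3 h the members' median was 0, with 41 above 0, 22 below 0 and 20 at exactly 0. Over all probe sets above the filter the 3 h median was −0.01, with 14.2% at exactly 0. The shares above and below 0 were not counted there. In either pair alone, 3.67% (replicate 1) and 3.93% (replicate 2) of all probe sets above the filter were at least 1.5-fold higher with estradiol. In both pairs together 131 were, or 0.902%, which is 24.6% of the replicate 1 list and 22.9% of the replicate 2 list. Of these 131, 83 lay inside the 3 h window (63.4%), where 84.8% of all probe sets lay, while 39 were above it and 9 below it. Turned round, the rule gave 57 probe sets that were lower with estradiol. A 2-fold difference in both 5 h pairs was reached by 17 of the 83 members (20.5%), 11 of them named. Of the 131 probe sets higher in both pairs, 33 reached it, and of all probe sets above the filter 0.227% did. The members' excess over all probe sets is set by the rule, which required 1.5-fold in both pairs.

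**Figure D1:**
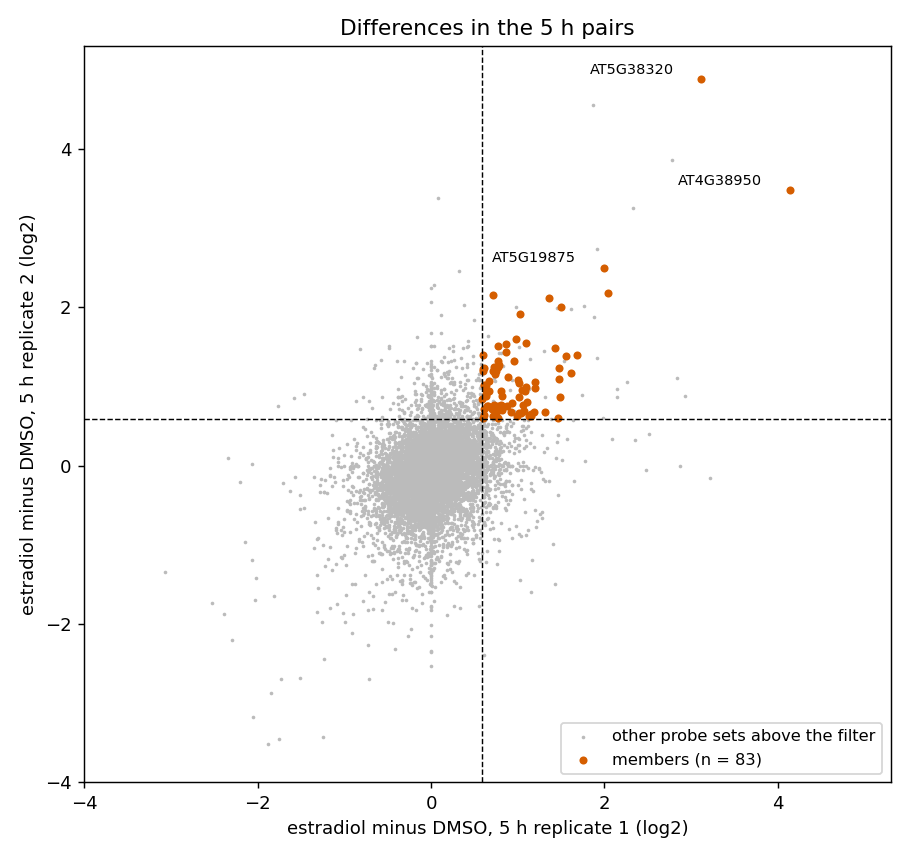
Estradiol minus DMSO differences (log2) in replicate 1 of 5 h (x axis) against replicate 2 of 5 h (y axis) for the probe sets above the filter, with the 83 members in orange, other probe sets in grey and dashed lines at 0.585. Members lie beyond both lines by construction, AT4G38950 and AT5G38320 stand furthest out, and 1 other probe set lies beyond the axes.

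The member with the largest smaller difference encodes a microtubule motor. AT4G38950 belongs to the kinesin family, ATP-driven proteins that move along microtubules. Its levels were 8.64 and 7.77 in the estradiol arrays at 5 h, against 4.5 and 4.29 in the DMSO arrays, and 5.31 on each 3 h array. The 5 h groups lay far apart, and the mean difference was 3.81 (SD 0.47, n = 2 pairs), a 14.0-fold difference. AT2G25530, an ATPase of the AFG1-like family, was at 5 and 4.81 with estradiol, against 3.64 and 2.7 with DMSO, and at 2.99 on each 3 h array. Its groups did not overlap, with a mean difference of 1.74 (SD 0.53, n = 2 pairs), although the lower DMSO value was under the filter level. AT2G25530 passed the filter only with its estradiol arrays counted, since only 3.64 among its other values reached that level. Hop3, a co-chaperone that links heat shock chaperones to each other, was at 4.8 and 4.49 with estradiol against 3.98 and 3.74 with DMSO at 5 h, and at 5.24 on each 3 h array. All 3 of these genes had equal values on the 3 h arrays.

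Hydrolases made up 5 of the named members. AT4G24380, a predicted serine hydrolase, was at 8.34 and 7.8 in the estradiol arrays at 5 h, against 6.78 and 6.42 in the DMSO arrays, and at 8.58 against 8.54 at 3 h. The 5 h groups did not overlap, and the mean difference was 1.47 (SD 0.13, n = 2 pairs). AT1G74640, of the alpha/beta-hydrolase superfamily, was at 8.27 and 8.16 with estradiol, against 7.17 on each DMSO array at 5 h, and at 7.3 against 7.33 at 3 h. Its pairs lay close together, with a mean difference of 1.05 (SD 0.08, n = 2 pairs). AT2G36290, also of the alpha/beta-hydrolase superfamily, differed by 1.02 and 0.66 in the 5 h pairs and by −0.3 at 3 h, at the edge of the window. AT5G58980, a ceramidase that cleaves the sphingolipid ceramide, differed by 1.19 and 0.68 at 5 h and by 0.26 at 3 h. The phosphohydrolase AT5G40270 differed by 0.75 and 0.64 at 5 h and had 6.04 on each 3 h array. The 5 mean differences at 5 h ran between 0.70 and 1.47.

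Oxygenases that use oxoglutarate or ascorbate and iron numbered 4, with mean 5 h differences of 0.72 to 1.09. AT1G12010, an aminocyclopropane-carboxylate oxidase of ethylene synthesis, was at 5.1 and 3.78 in the estradiol arrays at 5 h, against 4.1 and 2.7 in the DMSO arrays, and at 2.15 on each 3 h array. Its groups overlapped, since replicate 2 was lower than replicate 1 in both treatments, while the differences within pairs were 1 and 1.08. AT1G12010 passed the filter only with its estradiol arrays counted, since only 4.1 among its other values reached the filter level. AT1G78550 was at 5.59 and 6.25 with estradiol, against 4.39 and 5.27 with DMSO at 5 h, and at 5.23 against 5.21 at 3 h. Here replicate 2 was the higher and the groups did not overlap. AT1G04350 differed by 0.74 and 0.73 in the 5 h pairs and by 0.24 at 3 h. AT4G33910, related to prolyl hydroxylases, differed by 0.71 and 0.73 and by 0.1 at 3 h. For these last 2 oxygenases, the pairs differed by 0.02 or less.

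Other enzymes acted on sugars, redox partners or sulfur. AT2G29340, a short-chain dehydrogenase of the tropinone reductase-like group, was at 10.02 and 9.59 in the estradiol arrays at 5 h, against 8.82 and 8.53 in the DMSO arrays, and at 8.1 against 7.83 at 3 h. Its groups did not overlap (mean difference 1.13, SD 0.10, n = 2 pairs). AT4G19460, a glycosyltransferase superfamily protein, was at 5.45 and 4.62 with estradiol, against 3.97 and 3.39 with DMSO at 5 h, and at 5.12 against 5.05 at 3 h. Its groups did not overlap, with a mean difference of 1.36 (SD 0.18, n = 2 pairs). GPDHC1, a cytosolic glycerol-phosphate dehydrogenase that carries reducing power between compartments, differed by 1.11 and 0.8 at 5 h and by 0.15 at 3 h. STR18, a sulfurtransferase, differed by 0.64 and 1.02 and by 0.07 at 3 h. TY1, a chloroplast thioredoxin, differed by 0.77 and 0.6 and had 5.65 on each 3 h array.

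Cell wall and carbohydrate-binding proteins numbered 4. AT3G17130, of the family of invertase and pectin methylesterase inhibitors, was at 5.35 and 4.75 in the estradiol arrays at 5 h, against 4.39 and 3.43 in the DMSO arrays, and at 4.52 against 4.57 at 3 h. The lower estradiol value lay above the higher DMSO value. AT5G03700, a mannose-binding lectin protein, was at 7.21 and 5.37 with estradiol, against 6.23 and 3.77 with DMSO at 5 h, and at 7.33 against 7.37 at 3 h. Its groups overlapped, with replicate 2 lower in both treatments. AT1G52000, a lectin of the jacalin type, was at 7.5 and 3.47 with estradiol, against 6.37 and 2.84 with DMSO at 5 h. The gap of 4.03 between its estradiol replicates was wider than its differences of 1.13 and 0.63. AT1G72600, a hydroxyproline-rich glycoprotein, was at 3.91 and 2.94 with estradiol, against 2.76 and 2.32 with DMSO at 5 h. It differed by 1.15 and 0.62 and had 3.86 on each 3 h array. For AT1G52000 and AT1G72600, both values of replicate 2 at 5 h lay under the filter level.

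Signalling proteins included AT5G44910, with a TIR domain as found in immune receptors. It was at 5.1 and 6.87 in the estradiol arrays at 5 h, against 4.07 and 4.95 in the DMSO arrays, and at 7.76 against 7.48 at 3 h. The 5 h groups were 0.15 apart at their nearest values, and the mean difference was 1.48 (SD 0.63, n = 2 pairs). AT3G23310, a kinase of the AGC group, differed by 0.71 and 1.19 at 5 h and by 0.24 at 3 h. The kinase AT5G40540 differed by 0.99 and 0.63 and by −0.11 at 3 h. AT1G18810, related to the phytochrome kinase substrates that act in light-directed growth, differed by 1.07 and 0.69 and had 3.48 on each 3 h array. With DMSO at 5 h it was at 4.97 and 3.4, so it passed the filter only with its estradiol arrays counted.

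Nuclear, RNA-related and filament-like proteins numbered 6, with mean 5 h differences of 0.6 to 1.04. AT2G29065, a GRAS family transcription factor, was at 3.68 and 3.89 with estradiol against 2.96 and 3.27 with DMSO at 5 h, and at 2.99 on each 3 h array. It passed the filter through its estradiol values alone. AT1G10320, a zinc finger protein related to a splicing factor subunit, differed by 1.47 and 0.6 in the 5 h pairs and by 0.23 at 3 h, and was the least even of the named members after AT5G38320 and AT5G44910. AT3G22220, of the hAT transposase superfamily, differed by 0.65 and 0.75 and by −0.18 at 3 h. AT5G47360, a pentatricopeptide repeat protein of the kind that binds organelle RNA, differed by 0.6 in each 5 h pair and by 0.01 at 3 h. AT3G02930, related to proteins of chloroplast movement in blue light, differed by 1.06 and 0.76 and had 6.16 on each 3 h array. AT2G23360, a filament-like protein, differed by 0.61 and 0.72 and by 0.22 at 3 h.

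For 8 named members no role is given here. AT5G38320 was at 5.51 and 7.04 in the estradiol arrays at 5 h, against 2.39 and 2.16 in the DMSO arrays, and at 2.1 on each 3 h array. Its mean difference of 4.0 (SD 1.25, n = 2 pairs) was the largest of all members, but its DMSO and 3 h values lay at or near the lowest value of their arrays, which sets the size of the fold. AT5G38320 passed the filter through its 5 h estradiol arrays alone. AT5G19875 was at 6.47 and 6.2 with estradiol, against 4.48 and 3.7 with DMSO at 5 h, and at 6.37 against 6.09 at 3 h. Its groups lay well apart, with a mean difference of 2.25 (SD 0.36, n = 2 pairs). AT4G27657 was at 5.67 and 3.88 with estradiol, against 4.06 and 2.71 with DMSO at 5 h, and at 5.68 on each 3 h array. AT3G18560 was at 7.11 and 4.69 with estradiol, against 5.63 and 3.6 with DMSO at 5 h, and at 6.5 against 6.52 at 3 h. Both overlapped between groups because replicate 2 was lower throughout. AT1G67850 was at 7.26 and 6.75 with estradiol, against 6.39 and 5.32 with DMSO at 5 h, without overlap, and at 6.64 against 6.66 at 3 h. AT3G10120 differed by 0.79 and 1.27, AT5G03050 by 0.73 and 1.24, and AT5G08010 by 0.88 and 0.75.

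**Figure D2:**
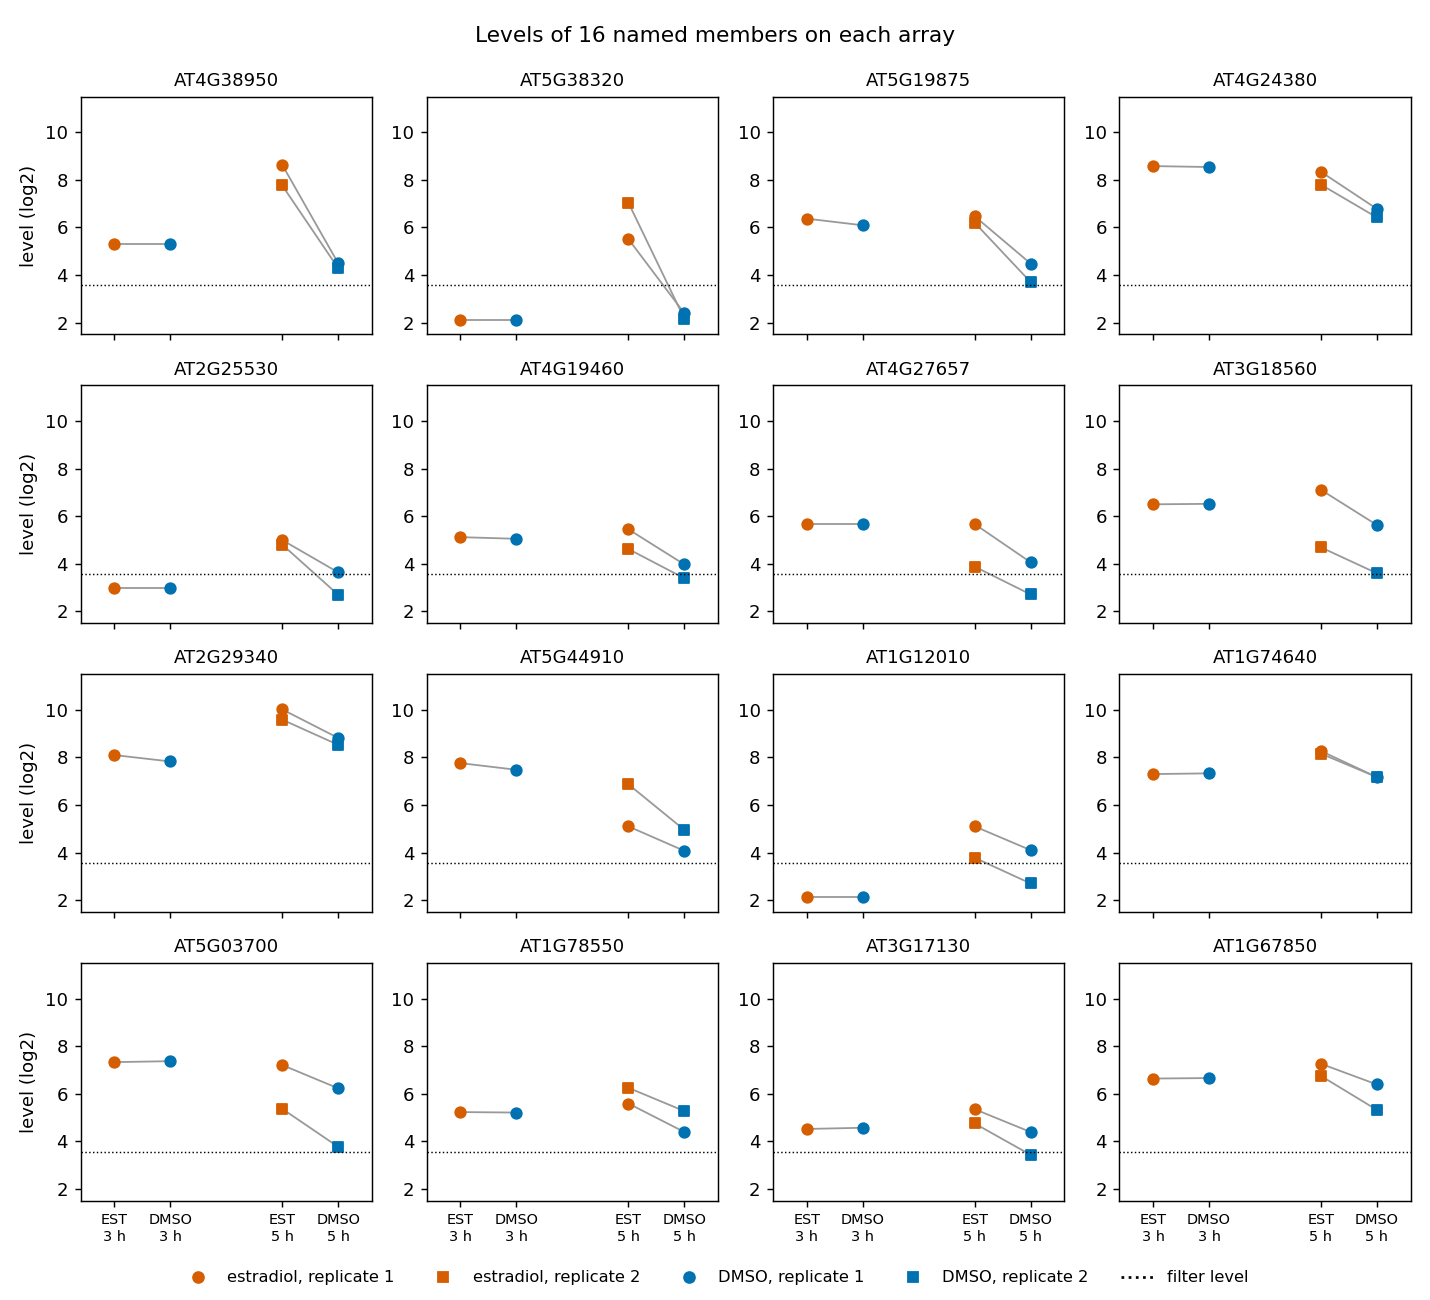
Deposited log2 levels (y axis) of 16 named members on each array (x axis: estradiol left of DMSO, at 3 h and at 5 h), with circles for replicate 1, squares for replicate 2, a line joining the arrays of each pair and a dotted line at the filter level of 3.56. The 3 h lines are near flat, the 5 h lines slope down towards DMSO, and for AT5G44910 or AT5G03700 the replicates sit far apart in level.

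Over the 83 members, the lower of the estradiol levels at 5 h lay above the higher of the DMSO levels for 62, and for 30 of the 39 named genes. Over all probe sets above the filter this held for 8.49%, and the rule had already used these values. Differences in the 5 h pairs lay within 0.3 of each other for 40 members, with a median gap of 0.31, beside 0.21 over all probe sets. The larger difference was in replicate 2 for 45 members, in replicate 1 for 37, and the 2 were equal for 1.

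**Figure D3:**
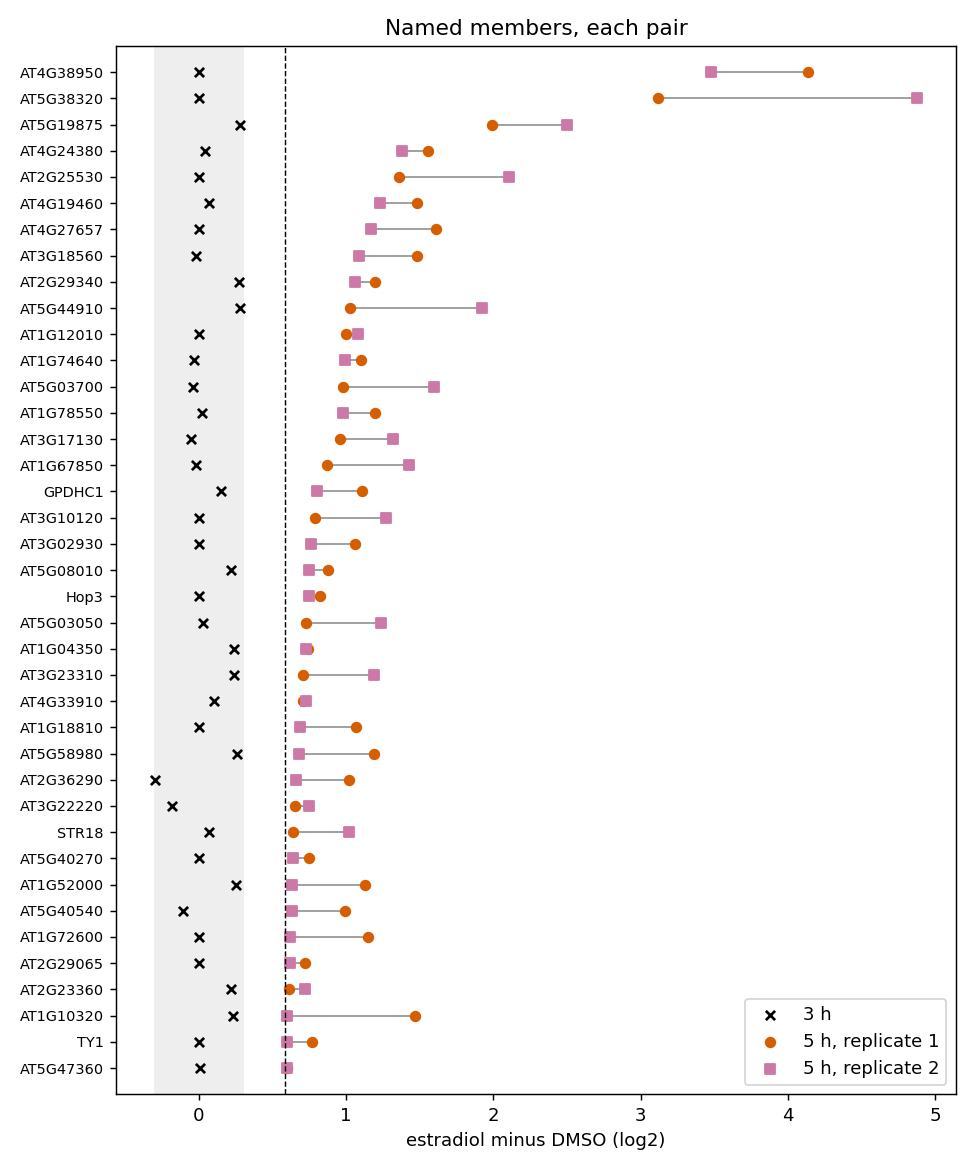
Estradiol minus DMSO differences (log2, x axis) of the 39 named members (rows, ordered by the smaller 5 h difference): crosses for 3 h, orange circles for replicate 1 of 5 h, pink squares for replicate 2 of 5 h. The grey band marks −0.3 to 0.3 and the dashed line 0.585, and AT4G38950, AT5G38320 and AT5G19875 lead the rows.

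Among the 44 members without a single named gene, 6 were 2-fold or more apart in both 5 h pairs. The probe set 260885_at was at 4.8 and 4.4 in the estradiol arrays at 5 h, against 2.76 and 2.22 in the DMSO arrays, and at 2.13 on each 3 h array. The probe set 258209_at was at 8.36 and 8.96 with estradiol, against 6.86 and 6.96 with DMSO at 5 h, and at 8.64 against 8.62 at 3 h. The probe set 260410_at was at 10.02 and 10.11 with estradiol, against 8.59 and 8.62 with DMSO at 5 h, and at 10.32 against 10.07 at 3 h. In the last 2 of these the replicates lay within 0.6 of each other in each treatment, and the groups did not overlap. The first, 260885_at, passed the filter through its 5 h estradiol arrays alone, with DMSO and 3 h values under the filter level. The probe set 252101_at differed by 1.68 and 1.4 at 5 h and by −0.04 at 3 h, and 255037_at by 1.1 and 1.55 and by 0.26. Like 260885_at, 252101_at passed the filter through its 5 h estradiol arrays alone, with DMSO values of 3.23 and 2.72 at 5 h.

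Near the limits, members and other probe sets differed little. AT1G10320, AT5G47360 and TY1, just inside the 5 h limit, each had a smaller difference of 0.6. Just outside it were SP1L4 with 0.58 and 1.28, AT1G47330 with 1.07 and 0.57, and AAE16 with 0.91 and 0.56. At the 3 h limit, AT2G36290 with −0.3 and AT5G19875 and AT5G44910 with 0.28 each were inside, whereas AT3G54390 with 0.31, AT5G64850 with 0.33 and IAGLU with −0.35 were outside.

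The members sat lower on the arrays than other probe sets. Their mean 5 h level had a median of 6.57 with estradiol and 5.54 with DMSO, beside 7.21 and 7.22 over all probe sets above the filter. At least 1 of the 5 h DMSO arrays was under the filter level for 20 members (24.1%), beside 11.1% of all, and all 6 arrays reached it for 62 (74.7%), beside 86.1% of all. Both 5 h DMSO arrays were under it for 7 members (8.43%), beside 2.82% of all. A member could pass the filter through its estradiol arrays, so these shares are partly set by the rule.

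Equal deposited values on the estradiol and DMSO arrays of 3 h were common among the members. The 2 values, given to 2 decimals, were identical for 20 of the 83 (24.1%), beside 14.2% of all probe sets above the filter. A difference of exactly 0 lies inside the 3 h window by definition. With a 3 h mean under 6, 18 of 31 members were equal (58.1%), beside 37.0% of all such probe sets. At 6 or above, 2 of 52 members were (3.85%), beside 7.29%. The named ones numbered 13. They were AT4G38950, AT5G38320, AT2G25530, AT4G27657, AT1G12010, AT3G10120, AT3G02930, Hop3, AT1G18810, AT5G40270, AT1G72600, AT2G29065 and TY1. Equal values were found in 13.0% of all probe sets in replicate 1 of 5 h and in 3.89% in replicate 2. Whether an equal value at 3 h stands for a measured lack of difference was not tested. Without these 20, 63 members are left.

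The 3 h levels of the members matched no single 5 h group. These levels compare pairs that were assumed to be separately normalized, so they are given as deposited and after quantile normalization of the 6 arrays. That scaling moved the median of all probe sets from −0.50 to 0 for 5 h minus 3 h with estradiol, and from −0.51 to 0.01 with DMSO. For the members, the 5 h mean minus the 3 h level had a median of 0.23 with estradiol and −0.8 with DMSO as deposited, and of 0.63 and −0.26 after quantile normalization. On both scales, 18 members had a 5 h DMSO mean at or above their 3 h DMSO level, and an estradiol mean further above its own 3 h level (21.7%, as over all probe sets for the DMSO condition). Named examples were AT5G38320, AT2G29340 and AT1G12010, the last at 2.29 with estradiol and 1.25 with DMSO as deposited. On both scales, 16 members had a 5 h estradiol mean at or below their 3 h estradiol level (19.3%, beside 50.2% of all). AT4G24380 was at −0.51 with estradiol and −1.94 with DMSO as deposited, and at −0.01 and −1.41 after quantile normalization. AT5G44910 was at −1.78 and −2.97 as deposited, and at −1.29 and −2.40 after it. AT4G27657, AT3G18560, AT5G03700, Hop3, AT5G40270 and AT1G72600 were the other named members of this kind. For them the 5 h difference stood beside a lower DMSO level at 5 h than at 3 h, not beside a higher estradiol level. Another 14 members, AT4G38950 among them, were higher with estradiol and lower with DMSO at 5 h than at 3 h on both scales (16.9%, beside 0.455% of all), a pattern that the rule favours. The other 35 changed side between the scales (42.2%, beside 38.2% of all). The name late-rising therefore does not describe all members, and they are called here by their rule.

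**Figure D4:**
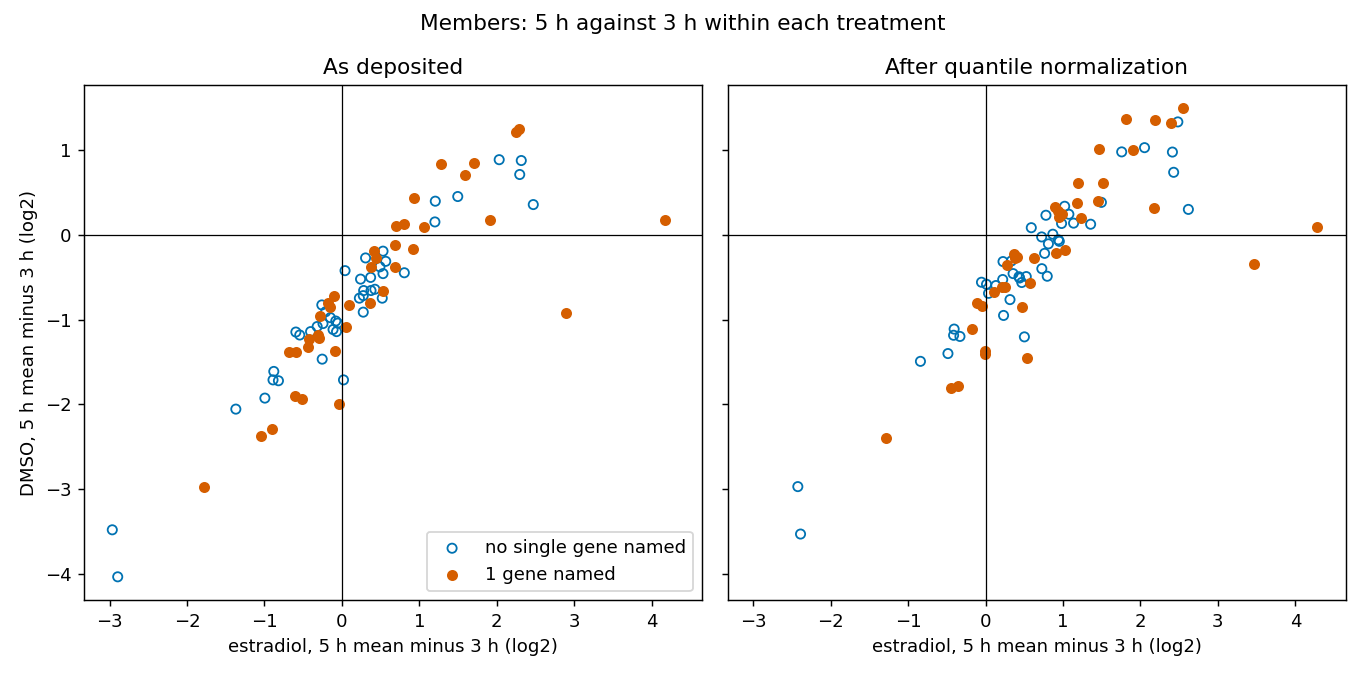
Each of the 83 members by its 5 h mean minus 3 h level with estradiol (x axis, log2) and with DMSO (y axis, log2), as deposited (left) and after quantile normalization (right), with filled orange points for members with 1 named gene and open blue points for the others. Points in the lower left, such as AT5G44910, were lower at 5 h in both treatments, and points in the upper right were higher in both. Most of the cloud shifts up and to the right after quantile normalization, but AT5G38320 moves down with DMSO, from 0.175 to 0.09.

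Lists of gene families were described by counts, beside the same over all probe sets. Of 15 kinesins of the kinesin-7 and related groups, 10 passed the filter, and AT4G38950 was the only member and the only one at least 1.5-fold higher in both 5 h pairs (0.902% of all probe sets). AT2G21300 was at −0.09 and −0.72, and AT5G66310 at −0.23 and 0.77. The median of the mean 5 h difference was −0.04 over the 10, beside −0.01 over all probe sets. Of 12 tropinone reductase-like dehydrogenases, 8 passed the filter, with a median of 0.23, and AT2G29340 alone was at least 1.5-fold higher in both pairs. AT2G29300 and AT2G29370 were at −0.1 and 0.89 and at −0.01 and 0.95, apart in replicate 2 only. Of 10 Sec14-like lipid transfer proteins, 8 passed, with a median of 0.14. AT4G36640 was higher in both pairs, by 0.81 and 1.42, but was also at 0.5 at 3 h and so no member.

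Lists tied to hormones, senescence and flavonoids were hardly covered by named probe sets. Of 10 pipecolate and salicylate genes, 1 was named. It was AT5G52810, an enzyme of pipecolate synthesis in systemic resistance, and it differed by 1.45 and 1.99 at 5 h and by 0.51 at 3 h. Of 8 leaf senescence genes, 2 were named and 0 were higher in both pairs. SAG101 was at 0.21 and 0.05 at 5 h and at 0 at 3 h, and AT2G17850 at 0 and −1.82 and at −2.52. The 0 of AT2G17850 came from 3.27 on each replicate 1 array of 5 h, under the filter level. Of 11 flavonoid regulators and enzymes, DFR alone was named and it was under the filter, and 0 of 13 jasmonate genes were named. Of 5 stomatal markers, 3 were named: In replicates 1 and 2 of 5 h the differences of FMA were −0.38 and −1.17, those of SPCH were 0.03, near 0, and −1.29, and MUTE was at or under 2.22 on all arrays. The trichome marker TRY, named of 3, and the seed gene AT1G47540, named of 5 flower and seed markers, were at or under 2.7 on all arrays.

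Neighbouring genes were looked at next. In the gene order of the RefSeq annotation of TAIR10.1, the 39 named members had 39 other protein-coding genes within 2 places that were named on a probe set above the filter. Of these 0 were at least 1.5-fold higher in both 5 h pairs, and 2 were at least 1.5-fold lower (0.813% of all probe sets were). HAT2, a homeodomain-leucine zipper gene next to AT5G47360, was at −1.22 and −1.27, and at −0.64 at 3 h. AT4G24350, of the phosphorylase superfamily and near AT4G24380, was at −0.67 and −0.91, and at 0.34 at 3 h. Both were picked out after their values were seen.

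Fitted over all 14520 probe sets with limma, the 5 h comparison of estradiol with DMSO (n = 2 arrays each) called 1 probe set at an adjusted p under 0.05 (0.00689%), which was no member, with 164 at an unadjusted p under 0.05. With the replicate number as a block it called 0 (0%), with 1153 at an unadjusted p under 0.05. The contrast that compares the estradiol effect at 5 h with that at 3 h called 0 without the block, with 25 at an unadjusted p under 0.05, and 0 with it, with 425. A difference between the times is thus shown for no member by this test, and with 1 array per treatment at 3 h the lack of calls does not show that the times were alike. Fits without the block ignored the pairing of the arrays, so shifts shared by both treatments of a replicate counted as spread. Counts at an unadjusted p are no calls, since a share of 0.05 of all probe sets is expected there if none differed. The counts of 164, 25 and 425 lay under that share and the count of 1153 above it, for reasons that were not tested.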

How the data were processed

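For each of 6 biotin-labelled samples on ATH1 arrays, the authors deposited log2 values, 1 per probe set. Per the submitters' processing notes, GCRMA and RMA were used, in roles not stated. Log base 2 was read from a range of 2.1 to 15.35, and all folds rest on it. Of 22810 rows, 64 controls were left out. Genes came from the platform annotation, updated through gene numbers to RefSeq of TAIR10.1 (13513 probe sets with 1 gene, 13436 matched, 503 with several, 8730 unlisted). At 5 h, replicate 1 minus replicate 2 correlated at 0.907 between estradiol and DMSO over probe sets above the filter, so the numbers were taken to pair the samples. Deviations from the treatment means over both times correlated at 0.94, 0.927 and 0.907 within pairs. Those means pool the times, so these 3 values cannot show pairing by number. Fits used R 4.3.3 and limma 3.58.1 (lmFit, eBayes with trend, two-sided, Benjamini-Hochberg). The code was tested on simulated data without a pair effect, which does not show how the fits behave on these paired arrays. p-values measure the spread between these arrays only. All members with 1 gene are named, and 16 were chosen for array-by-array values: AT4G38950, AT5G38320, AT4G24380, AT1G74640 and those with the largest smaller 5 h difference. Levels of Hop3, AT2G29065, AT1G52000 and AT1G72600 were added after their values were seen. Members, lists and limits were chosen with earlier results of these data known. The planned search for promoter motifs was not run, since promoter sequences were not used here. Alternatives covered thresholds, filter, scaling, block and left-out arrays.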

Additional observations from a re-analysis of the deposited data

Results flagged for a closer look

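For 8 of the 39 named members (20.5%) the 3 h difference was below 0 while both 5 h pairs were above it. Over all probe sets above the filter the median 3 h difference was −0.01, so values below 0 at 3 h were common on the arrays. Of all 83 members, 26.5% were below 0 at 3 h and 49.4% above it. The share of each sign over all probe sets was not counted. The rule fixed the sign at 5 h. The 3 h values were −0.02 for AT3G18560, −0.03 for AT1G74640, −0.04 for AT5G03700, −0.05 for AT3G17130, −0.02 for AT1G67850, −0.3 for AT2G36290, −0.18 for AT3G22220 and −0.11 for AT5G40540. The members were chosen for differing between the times, and the rule kept every 3 h difference between −0.3 and 0.3. The SD of the 3 h difference over all probe sets above the filter was 0.26. That is a spread across probe sets, and with 1 pair at 3 h it does not measure the error of a single gene. The contrast between times, fitted with limma over all 14520 probe sets, called 0 of them (25 at an unadjusted p under 0.05), and no p is given for single members because their choice used both times.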

How the results depend on the processing

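The number of members was 83. It was 17 with a 2-fold limit in both 5 h pairs and 197 when only the mean of the pairs had to reach 1.5-fold. With the rule on a single 5 h pair it ran from 359 to 414. Other planned settings gave between 63 and 111: a 3 h window of 0.2 (65) or of 1.5-fold (111), no filter (88), all 5 h arrays above the filter level (63), quantile normalization (85, of which 73 were among the 83), centred pair differences (88, of which 82 were), and families kept (83). Added after seeing the data, leaving out equal 3 h values gave 63, and quantile normalization with all 5 h arrays above the filter level gave 63, of which 54 were among the 83. For the 16 genes chosen for array-by-array values, the mean 5 h difference shifted by −0.02 to 0.20 under quantile normalization, by 0.02 under centring, by −0.33 to 0.88 without replicate 1 and by −0.88 to 0.33 without replicate 2; the rule fixes its sign on the deposited scale. The limma call at 5 h (1) was 0 with the replicate block, without the filter, with quantile normalization and without the variance trend, and ran from 0 to 1 without single arrays, being lost without either estradiol array. The contrast between times called 0 in all 9 settings, and the replicate block changed no other call. The cause of these losses was not tested. Arrays near their lowest value limit the folds of members such as AT5G38320.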
